A study of Homo sapiens with 14 samples.

Results

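Isolated narrow KMT2D peaks were examined in SCC23, a human cell line established from an HNSCC (squamous cell carcinoma of the head and neck). A peak belonged to this set when it was at most 1000 bp wide, lay on chromosomes 1 to 22 and had no other peak summit within 200 kb on either side. Members were thus chosen by 2 measured values, peak width and the distance between summits. The rule was met by 820 of the 12989 peaks on these chromosomes (6.31%, 95% Wilson interval 5.91 to 6.74%) and thus by 820 of the 13808 peaks in the whole list. The peaks came from 1 chromatin immunoprecipitation (ChIP-seq) library, made with an antibody to KMT2D from KMT2D-WT cells kept for 6 hours without glucose. The other 13 of the 14 sample labels describe an input and histone libraries of KMT2D-WT and KMT2D-KO cells under the same glucose deprivation, and these were not analysed here. Knockout cells were made with Cas9 and a guide to KMT2D, with a LacZ guide as control, and the KMT2D-WT cells are described as parental and wild type, without saying whether they carried the LacZ guide. A peak list holds no expression, so the identity of the cells was not checked against markers. With 1 library there were no replicates, so no difference was tested and all intervals cover counting error only.

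KMT2D is a histone methyltransferase that places H3K4me1, the mark of enhancers, and works with the CBP/P300 acetyltransferases that add H3K27ac. Enhancers of the genes that define a cell type often lie in clusters within a short stretch of the genome, whereas a single enhancer or promoter can also stand alone in a stretch with few genes. A peak is a short region in which the antibody recovered more DNA than the control did, and its summit is the base with the most fragments.

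Isolated peaks were weaker and narrower than the other peaks as a group. Their median fold enrichment, the ratio of ChIP to local background at the summit, was 3.74 (95% interval of the median 3.56 to 3.79, interquartile range 3.04 to 4.84). The other 12169 peaks of chromosomes 1 to 22 had a median of 4.10 (4.01 to 4.11). Among the other peaks, those up to 1000 bp wide had a median of 3.93 and the 735 wider ones a median of 7.61. The isolated minus the other median was -0.36, and -0.19 against the other peaks up to 1000 bp wide. With no width limit in the rule it was -0.35. The highest fold enrichment of an isolated peak was 13.1, and 176 of the other peaks (1.45%) lay above it. A fold enrichment of at least 5 was reached by 188 isolated peaks (22.9%, 95% Wilson interval 20.2 to 25.9%), against 32.1% of all peaks on these chromosomes. At least 10 was reached by 10 isolated peaks (1.22%), against 4.44% of all peaks. The fold, q and width values come from the same list that the rule used, and they are given as a description.

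**Figure D1:**
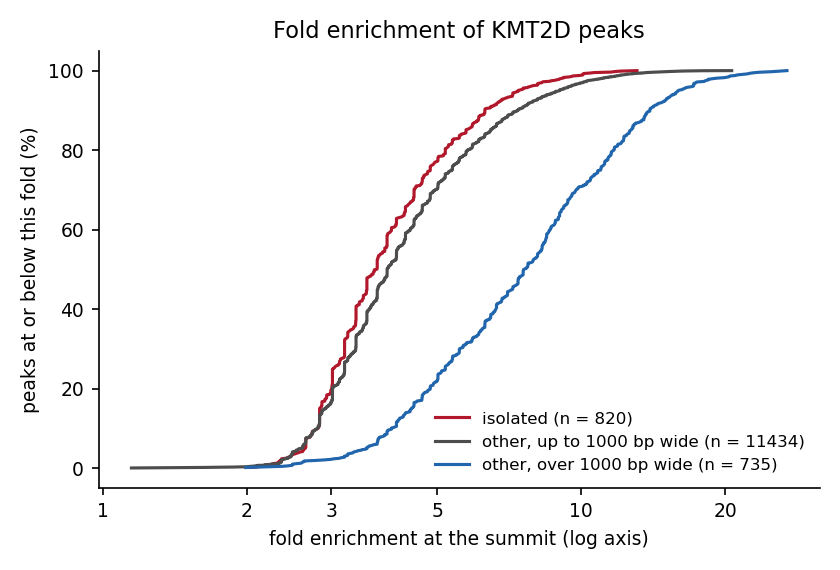
Cumulative share of peaks (vertical axis, %) at or below each fold enrichment (horizontal log axis) for isolated peaks, other peaks up to 1000 bp wide and other peaks over 1000 bp wide. The curve of the 820 isolated peaks runs slightly to the left of that of the 11434 other narrow peaks, and the 735 wide peaks lie far to the right.

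The q-value is the peak caller's p-value adjusted for many positions. It was 0.05 or less in 392 isolated peaks (47.8%, 44.4 to 51.2%), against 58.8% of all peaks on chromosomes 1 to 22. The share among the other peaks was 59.6% (58.7 to 60.5%). At the stricter q-value of 0.01, 306 isolated peaks passed (37.3%, 34.1 to 40.7%), against 48.0% of all peaks. A q-value of 1 was given to 153 isolated peaks (18.7%, 16.1 to 21.5%), against 13.9% of all peaks. Most of the isolated peaks, 428 of 820, therefore had a q-value above 0.05.

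The q-value is computed from the fragments over the summit, so isolated peaks on either side of 0.05 also differed in their fragments. Those with a q-value of at most 0.05 had a median of 29 ChIP fragments over the summit and a median fold enrichment of 4.87. Those above it had a median of 16 fragments and a fold enrichment of 3.12. The median distance to the nearest other summit was 355.4 kb in the first class and 357.4 kb in the other.

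The difference between isolated and other peaks was smaller at matched widths. The median isolated peak was 279.5 bp wide (95% interval 269 to 290 bp), against 350 bp (345 to 354 bp) in the other peaks and 335 bp in the other peaks up to 1000 bp wide. Peaks of 200 bp or less made up 13.4% of isolated peaks (11.3 to 15.9%) and 8.01% of the other peaks (7.54 to 8.51%). In 5 of 6 ranges of width the intervals of isolated and other peaks overlapped. Among peaks 301 to 400 bp wide, the median fold enrichment was 4.11 in 160 isolated peaks and 3.95 in 2347 others, and the share with a q-value of at most 0.05 was 59.4% (51.6 to 66.7%) and 57.5% (55.5 to 59.5%). Among peaks up to 200 bp wide, these shares were 24.5% and 25.4%. The share was lower in isolated peaks at 201 to 250 bp, with 34.4% (28.5 to 40.8%) against 39.2% (37.2 to 41.2%), and at 601 to 1000 bp, with 75.4% (63.3 to 84.5%) against 84.6% (82.9 to 86.2%). At 401 to 600 bp, where the intervals were apart, 59.8% of 132 isolated peaks (51.3 to 67.8%) had such a q-value, against 71.5% of 2520 others (69.7 to 73.2%). At 251 to 300 bp it was 51.1% in isolated peaks and 49.0% in the others. Median fold enrichment was 3.25 in isolated and 3.27 in other peaks up to 200 bp wide, and 3.50 and 3.47 at 201 to 250 bp. At 251 to 300 bp it was 3.69 and 3.71, and at 601 to 1000 bp it was 5.89 and 5.74. Only at 401 to 600 bp were these intervals apart, with 4.19 (3.93 to 4.47) in isolated peaks and 4.65 (4.54 to 4.82) in the others. Of the other peaks up to 1000 bp wide, 57.3% had a q-value of at most 0.05, which is 9.52 percentage points above the isolated peaks. When these narrow peaks were weighted to the widths of the isolated ones, the share was 51.1% and the difference 3.27 percentage points.

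**Figure D2:**
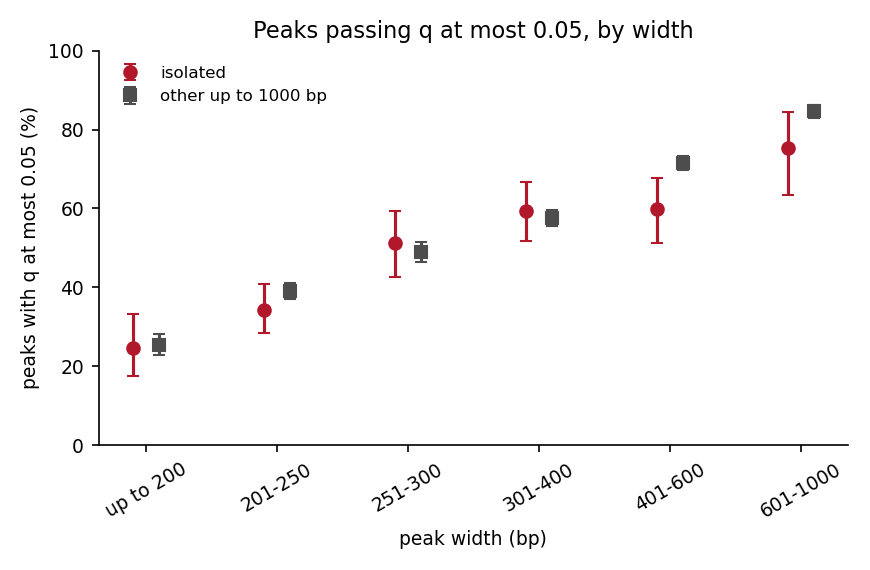
Share of peaks with a q-value of at most 0.05 (vertical axis, %) in 6 ranges of peak width (horizontal axis, bp) for isolated peaks and for other peaks up to 1000 bp wide, with 95% Wilson intervals as bars. Both sets rise with width from 24.5 and 25.4% to 75.4 and 84.6%, and their intervals are apart only at 401 to 600 bp.

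Wide peaks were rare where no other summit was near. Without the width limit, 830 peaks had no other summit within 200 kb, and 10 of these were wider than 1000 bp (1.20%, 0.656 to 2.2%). Of the 12159 peaks that did have a summit within 200 kb, 5.96% (5.56 to 6.40%) were that wide. The strongest of the 10 lay at chr2:32008568-32009703 with 98 fragments and a fold enrichment of 12.8. Another lay at chr5:10160-11735, close to the end of the chromosome, with a fold enrichment of 2.61 where the control was 41.1 times its genome-wide level.

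Among peaks with a neighbour 1 to 200 kb away, median fold enrichment was lower in each farther range, and among the isolated ones it did not follow such an order. Among all peaks up to 1000 bp wide, median fold enrichment was highest, at 4.29 (4.25 to 4.35), for those 1 to 5 kb from the next summit. It was 4.11 at 5 to 25 kb, 3.76 at 25 to 100 kb and 3.62 (3.56 to 3.75) at 100 to 200 kb. Peaks with a neighbour within 1 kb were also low, at 3.56 (3.56 to 3.61). The isolated peaks gave 3.69 (3.49 to 3.89) at 200 to 300 kb, 3.72 at 300 to 500 kb, 3.92 at 500 to 1000 kb and 3.55 (3.20 to 3.89) beyond 1000 kb, with overlapping intervals throughout. The share with a q-value of at most 0.05 fell from 66.6% at 1 to 5 kb to 45.4% at 100 to 200 kb. In the isolated peaks it was 48.2% (42.6 to 53.8%) at 200 to 300 kb, 47.7% at 300 to 500 kb and 51.5% at 500 to 1000 kb. Beyond 1000 kb it was 39.5% (29.9 to 50.1%), the lowest of the 9 ranges, with an interval that overlapped those of the other isolated ranges. Over the 820 isolated peaks, Spearman's rho between distance and fold enrichment was 0.000417, whereas rho between width and fold enrichment was 0.37. All of these peaks share 1 library.

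**Figure D3:**
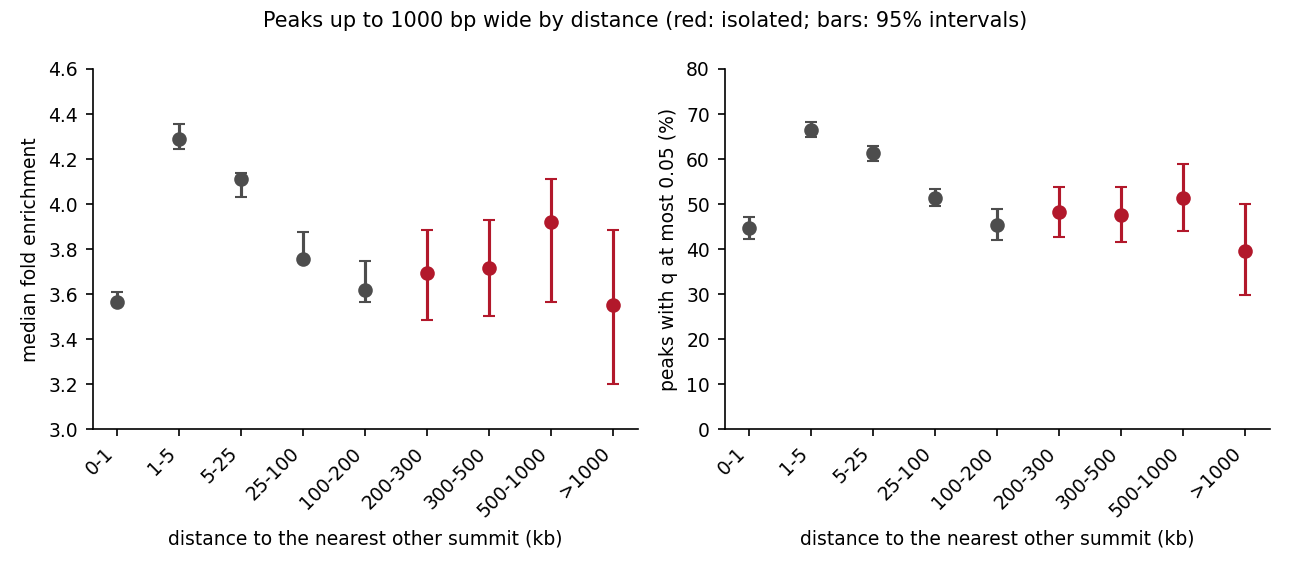
Median fold enrichment (left) and share of peaks with a q-value of at most 0.05 in % (right) against the distance to the nearest other summit in kb, for peaks up to 1000 bp wide, with 95% intervals as bars and isolated peaks in red; the left axis starts at 3. Both measures are highest at 1 to 5 kb, with 4.29 and 66.6%, and the 4 red bins have overlapping intervals.

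The evidence behind an isolated peak was a small number of fragments. The median summit had 21 ChIP fragments (interquartile range 16 to 29, range 11 to 193), against 25 in the other peaks and the 2.88 fragments that the genome-wide background gives. Some other peaks up to 1000 bp wide had medians as low, with 20.5 within 1 kb of the next summit and 20 at 100 to 200 kb. In the ranges between, from 1 to 5 kb up to 25 to 100 kb, the medians were 28, 25 and 23. Up to 20 fragments were counted in 381 isolated peaks (46.5%). The interquartile range of the other peaks was 18 to 38 fragments, so such counts were not particular to isolated peaks. At the genome-wide background each further fragment added 0.18 to the fold enrichment, so many peaks carried the same values: 34 isolated peaks had 15 fragments and a fold enrichment of 3.20, and 32 had 14 fragments and 3.02. The 95% Poisson interval of such a count is wide. For 15 fragments it ran from 8.40 to 24.7, which corresponds to a fold enrichment between 2.00 and 4.97.

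The local background, which MACS2 takes from the control around the summit, was lower at isolated peaks than at the other peaks as a group. At 67 isolated peaks it was 2 times the genome-wide level or more (8.17%, 6.49 to 10.2%), against 15.2% of all peaks on chromosomes 1 to 22. Among other peaks up to 1000 bp wide, this share fell from 19.4% at 1 to 5 kb to 10.4% (8.49 to 12.7%) at 100 to 200 kb. Within 1 kb it was 13.5%. The interval at 100 to 200 kb overlapped that of the isolated peaks. Among these, the share lay between 7.26% at 200 to 300 kb and 10.5% beyond 1000 kb. The local background was within 1% of the genome-wide level at 419 isolated peaks (51.1%, 47.7 to 54.5%), against 42.4% of the other peaks (41.5 to 43.2%). At 156 isolated peaks (19.0%, 16.5 to 21.9%) and 24.7% of the other peaks (24.0 to 25.5%), the background lay within 0.002 of a whole number of control fragments, 2 or more. Exactly 2 control fragments occurred about equally often, at 13.4% of isolated and 13.6% of other peaks. By contrast, 3 were found at 3.05% (2.07 to 4.46%) and 6.25% (5.83 to 6.69%), and 4 or more at 2.56% (1.68 to 3.88%) and 4.92% (4.55 to 5.32%). The position of the summit in the peak was alike, and it lay in the middle 50% of the width in 77.4% of isolated peaks (74.5 to 80.2%) and 76.0% of the others (75.2 to 76.7%).

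**Figure D4:**
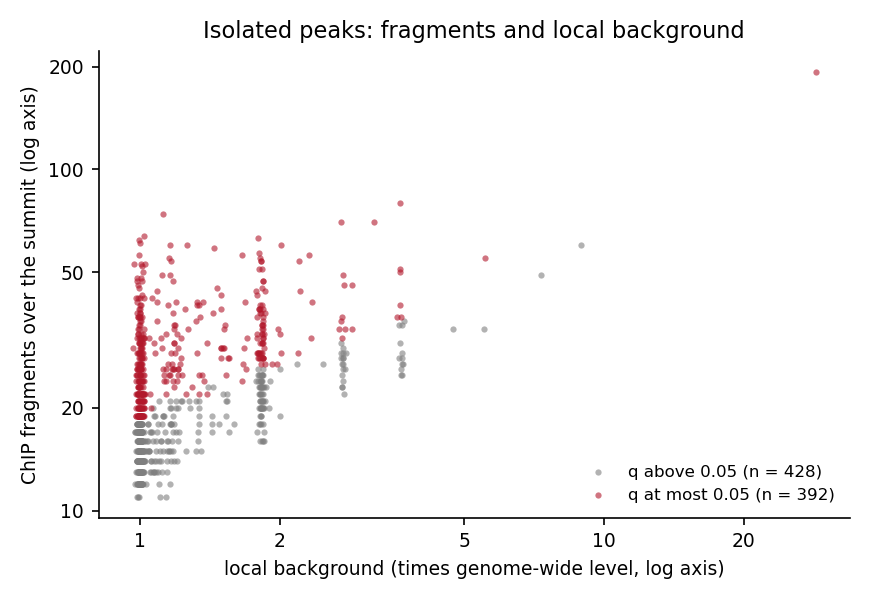
ChIP fragments over the summit (vertical log axis) against the local background in multiples of the genome-wide level (horizontal log axis) for the 820 isolated peaks, in red where the q-value was at most 0.05; points are shifted slightly sideways at random to separate them. Most points stand at a background near 1, a second column stands at 1.83 (2 control fragments), and 1 peak stands alone with 193 fragments over a background of 28.3.

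The 10 isolated peaks with the highest fold enrichment lay on 8 chromosomes and were 347 to 829 bp wide, with a median of 652 bp. All had a local background of at most 1.24 times the genome-wide level and a q-value of at most 1.43e-15. The strongest was chr1:229842850-229843489, in coordinates of GRCh37. It had 74 fragments over the summit (95% Poisson interval 58.1 to 92.9), a fold enrichment of 13.1 (10.4 to 16.3 over that interval) and a q-value of 1.45e-24, and its neighbours were 363.5 kb and 377.3 kb away. The next was chr2:197097690-197098362 with 64 fragments and a fold enrichment of 12.1 (9.43 to 15.3). It had 488.9 kb free of summits on one side and 754.9 kb on the other.

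A narrow and strong peak was chr21:39606705-39607051, which was 347 bp wide with 62 fragments and a fold enrichment of 11.7 (9.11 to 14.9). The most remote of the 10 was chr4:121869450-121870079, with 61 fragments, a fold enrichment of 11.6 and more than 1.8 Mb to the next summit on both sides (1.85 and 1.82 Mb). At chr8:42349664-42350492 the fold enrichment was 10.6, and the nearest summit was 202.1 kb away, just beyond the limit. These 5 peaks cannot be ranked by their counts, since the interval of the strongest overlapped that of each of the others.

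Fold enrichment was 10.4 at chr1:55894647-55895310 and 10.1 at chr9:15510716-15511451, each with 60 fragments. The second of these had 1.20 Mb on the nearer side and 3.65 Mb on the farther side. The last 3 had 53 fragments each and a fold enrichment of 10.1. They were chr5:111496345-111496703, chr2:63841712-63842477 and chr6:79308527-79309010. The interval of 53 fragments, 39.7 to 69.3, also overlapped that of the strongest peak.

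Distance alone did not mark strong peaks. The most remote isolated peak, chr18:68025002-68025527, had no other summit for 6.48 Mb on one side and 6.25 Mb on the other, with 19 fragments, a fold enrichment of 3.93 and a q-value of 0.0395. The next, chr18:37526641-37526871, had 5.86 Mb on its nearer side, 14 fragments and a q-value of 0.994, and its fold enrichment of 3.02 had an interval of 1.87 to 4.74. At chr19:27732058-27732251, with 3.99 Mb on the nearer side, 50 fragments stood over a control raised to 3.65 times its genome-wide level, which gave a fold enrichment of 4.01. The other two were stronger. A fold enrichment of 6.11 with 37 fragments was found at chr3:76546862-76547109 (3.87 Mb to the nearest summit) and one of 7.18, also with 37 fragments, at chr4:135619923-135620332 (3.34 Mb). Of the 257 isolated peaks with more than 500 kb to the nearest summit, 99 had a q-value of at most 0.01 (38.5%), near the 37.3% of all isolated peaks and below the 48.0% of all peaks on chromosomes 1 to 22.

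The 5 isolated peaks with the lowest fold enrichment all stood over a raised control. The lowest, 1.99, was at chr2:243152501-243152879, the last peak of its chromosome, with 34 fragments and a control at 5.48 times its genome-wide level. The next, 2.10, was shared by 2 peaks, chr8:6456799-6457076 and chr7:4016199-4016489, where 25 fragments lay over a background of 3.65 times that level. At chr5:17526701-17526927 it was 2.17, with 60 fragments and a background of 9.13 times. At chr1:103345233-103345430 it was 2.18, with 26 fragments and a background of 3.65 times. All 5 had a q-value above 0.05.

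A background that reached 5 times the genome-wide level was found at 5 isolated peaks (0.610%, 0.261 to 1.42%), against 1.45% of the other peaks (1.25 to 1.67%). The highest was at chr12:133841586-133841809, where 193 fragments, the most of any isolated peak, gave a fold enrichment of only 2.33 over a background of 28.3 times. This peak was chosen after its values were seen. It was the last of its chromosome, as were 2 of the other 4. Of the 17 isolated peaks at the first or last position of a chromosome, 5 had a background raised to 2 times the genome-wide level or more (29.4%, 13.3 to 53.1%), against 7.72% (6.07 to 9.78%) of the 803 between other peaks. The first interval holds the 15.2% of all peaks on chromosomes 1 to 22. Median fold enrichment was 3.12 in the 17 and 3.75 in the 803.

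The gaps around isolated peaks were uneven. For the 803 with a neighbour on both sides, the nearer summit was a median of 356.7 kb away and the farther one 976.3 kb. More than 500 kb on both sides was found for 247 of them and more than 1 Mb for 82. The other peaks of chromosomes 1 to 22 had a median of 7.27 kb to their nearest summit. Isolated peaks made up 6.31% of the peaks and 4.67% of the length that peaks covered, yet 30.7% of the length between the outermost summits of each chromosome (850.9 of 2771.9 Mb) was nearer to an isolated peak than to any other. Such an excess follows from the distance rule. The distances run from summit to summit, with no allowance for stretches to which reads cannot be aligned.

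Most of the isolated peaks, 457 of 820 (55.7%), had another isolated peak as the next peak along the chromosome. The rule itself tends to bring this about, since a gap of over 200 kb is shared by the peaks on both sides of it. No share for comparison was computed. Together the 820 formed 540 runs of consecutive isolated peaks, of which 363 were single, 111 were pairs, 66 held at least 3 and 10 held at least 5. The longest run held 11 peaks on chr7:116772442-127032726, a stretch of 10.3 Mb. Fold enrichment in it lay between 2.84 and 5.03, with a median of 3.67. Of the 11, 3 had a q-value of at most 0.05, against 47.8% of all isolated peaks and 58.8% of all peaks on chromosomes 1 to 22. In this run, 3 others had 13 fragments each and a q-value of 1. The strongest of the run, chr7:121184910-121185154, had 37 fragments and a fold enrichment of 5.03.

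Other runs varied. Of the 7 peaks on chr10:27772070-32508624, 6 had a q-value of at most 0.05, and fold enrichment reached 9.56 with a median of 5.20. Of the 5 peaks on chr12:77459532-88214865, a stretch of 10.8 Mb, 4 passed, and of the 5 peaks on chr19:19488670-21531621, 4 passed. Of the 7 peaks on chr3:136470398-141659441, 3 passed, with a median fold enrichment of 3.56. On chr4:104419450-110910552 only 1 of 5 passed, with a median of 3.38. Against these counts stand 47.8% of all isolated peaks and 58.8% of all peaks on chromosomes 1 to 22, and the number of peaks in each run is too small to rank the runs.

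The share of peaks that were isolated ranged from 1.14% on chromosome 17 (10 of 876 peaks, 0.621 to 2.09%) to 14.9% on chromosome 4 (75 of 505, 12 to 18.2%). Chromosomes 13 and 18 followed with 11.2% (7.76 to 15.9%) and 11.1% (6.73 to 17.8%), and these did not separate from chromosome 4. Low shares were also found on chromosome 16 (2.19%), chromosome 22 (2.30%) and chromosome 19 (3.45%). The share fell as the density of all peaks rose, with a Spearman's rho of -0.93 over the 22 chromosomes, as the rule itself tends to bring about. Isolated peaks per Mb varied less than all peaks per Mb, with a ratio of the highest to the lowest chromosome of 3.29 against 6.41. They were most frequent on chromosome 2, with 98 isolated peaks and 0.403 per Mb (95% Poisson interval 0.327 to 0.491), and on chromosome 4, with 0.393 per Mb (0.309 to 0.493). They were least frequent on chromosomes 16 and 17, with 0.122 (0.0611 to 0.219) and 0.123 (0.0591 to 0.227) per Mb.

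**Figure D5:**
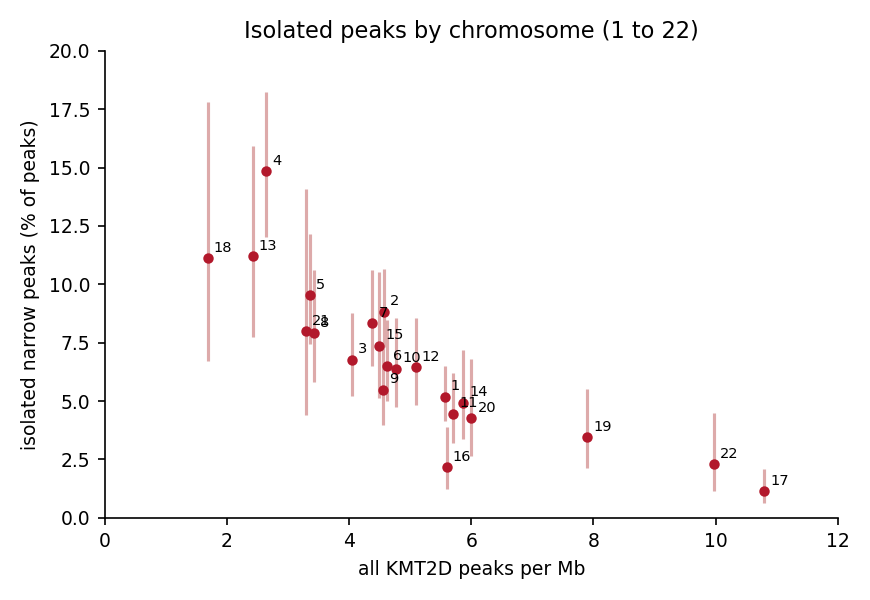
Isolated narrow peaks as % of the peaks of each chromosome (vertical axis, bars are 95% Wilson intervals) against the density of all KMT2D peaks per Mb (horizontal axis), with each point labelled by its chromosome. Chromosomes 4, 13 and 18 are at the upper left with 11.1 to 14.9%, and chromosomes 17 and 22 at the lower right with 1.14 and 2.30%.

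The median fold enrichment of isolated peaks was below that of the other peaks on 20 of the 22 chromosomes. Those other peaks include the ones wider than 1000 bp, which the rule bars from the isolated set. Only on chromosomes 1, 6 and 7 did the interval of the isolated median lie wholly below the value of the other peaks. The exceptions were chromosome 20, with 4.68 (3.44 to 7.18, 16 isolated peaks) against 4.29, and chromosome 21, with 4.65 (3.12 to 7.20, 10 isolated peaks) against 3.84. In both, the interval included the value of the other peaks. On chromosome 20, 12 of 16 isolated peaks (75%, 50.5 to 89.8%) had a q-value of at most 0.05, and on chromosome 17, 2 of 10 did (20%, 5.67 to 51.0%). These were the highest and lowest of the 22 shares, against 47.8% of all isolated peaks and 58.8% of all peaks, and the first interval holds the second of these values while the other holds the first.

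At the limits of the rule, values were as follows. The 3 widest isolated peaks were 918 to 965 bp wide, with 37, 45 and 44 fragments and a fold enrichment of 7.20, 6.93 and 5.92. The 3 peaks just too wide were 1011, 1060 and 1136 bp wide, with a fold enrichment of 3.20, 8.99 and 12.8. The 3 isolated peaks closest to the distance limit had their nearest summit at 200.4, 200.7 and 200.8 kb and a fold enrichment of 2.99, 2.84 and 3.01. The 3 peaks just too close lay 199.4, 199.2 and 198.6 kb from a summit, with a fold enrichment of 2.74, 2.83 and 4.17.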

How the data were processed

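Reads were aligned by the authors with Bowtie2 (v2.4.2) to GRCh37 (hg19). Only unique alignments were retained, and MACS2 (v2.2.8) called peaks at a p-value below 0.01. The control is not named in the sources used here. The deposited list gives each peak's limits and summit, the fold enrichment (a ratio with a pseudocount of 1), the −log10 p-value and −log10 q-value, and a score that is 10 times the −log10 p-value. Start positions are printed counted from 1.

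The number of ChIP fragments at each summit and the control level around it were recovered from fold enrichment and p-value, which MACS2 computes from the same 2 quantities. The fitted scale was 0.381, with 1.10 scaled fragments as the genome-wide level. ChIP coverage was thus 2.63 times that of the control. For each peak, the whole number of fragments with the nearest p-value was taken. Its −log10 p-value lay within 0.02 of the deposited one for 99.98% of the list and all 820 isolated peaks. The scale was fitted to this same gap, so the match is no independent check. The rebuilding and the isolation rule were also run on data simulated with the same formulas. Such a run checks the code and cannot show that the formulas hold for this list. Total depth was not analysed here.

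Shares have Wilson intervals, medians have binomial order-statistic intervals, and counts have exact Poisson intervals, all at 95%. The fold enrichment of a single peak has the interval of its ChIP fragments over a fixed local background. Counting error of the control is left out of it. No test was run, since 1 library was analysed. The members and lists were chosen with earlier results of these data known. Peaks named were the 10 isolated peaks of highest and the 5 of lowest fold enrichment, the 5 most remote, and 3 on either side of each limit; runs, wide peaks and peaks of high background were named after their values were seen. The reference at hand was GRCh38, so nearby genes, genomic features and motifs, planned for GRCh37, were not analysed here. Alternatives covered the q-value, distance and width limits, edge distances, chromosome ends, local background and the comparison peaks. Tables were handled in pandas 2.3.3 under Python 3.11.15, intervals computed with scipy 1.17.1 and numpy 2.4.6, and plots drawn with matplotlib 3.10.9.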

Additional observations from a re-analysis of the deposited data

Results flagged for a closer look

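Isolated narrow peaks also occurred on chromosome X, which the rule leaves out. By the same width and distance limits, 25 of its 147 peaks were isolated (17%, 95% Wilson interval 11.8 to 23.9%). Their median fold enrichment was 4.14 (3.56 to 4.47, range 1.62 to 6.94), with a median of 21 fragments over the summit. The q-value was 0.05 or less in 15 of the 25 (60.0%, 40.7 to 76.6%). This interval holds both the 47.8% of isolated peaks and the 58.8% of all peaks on chromosomes 1 to 22.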

How the results depend on the processing

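No paired analysis was possible because only 1 of the 14 labelled libraries was analysed. The limit for a shift was the distance from the middle to either end of the interval of the isolated peaks. For the number of peaks it was 1.5 times. Of 67 alternative values, 45 stayed within the limit, 21 moved beyond it and 1 changed direction.

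The number of isolated peaks, 820, was 392 with members at a q-value of at most 0.05, 1648 at a distance of 100 kb and 257 at 500 kb. When weaker peaks were removed before isolation was found, 862 were isolated: all 392 and 470 that had been within 200 kb of a weaker peak. Fold enrichment (isolated minus other median, -0.36) was -0.54 with a width limit of 500 bp and -0.19 against other narrow peaks or against all other peaks of the list. The difference in the share at a q-value of at most 0.05, -11.8 percentage points, was -15.7 at 500 bp and -3.27 against other narrow peaks weighted by width, an alternative chosen after seeing the data (-9.52 against the same peaks unweighted). Under the q-value alternatives this share is fixed, so no value was computed, nor for raised background without raised peaks. The difference in width, -70.5 bp, was -112.5 and -108.0 under these 2 q-value alternatives (isolation found again, and as in the whole list), -95.0 at 500 bp and -55.5 against other narrow peaks. The difference in fragments, -4, was -5 at a q-value of at most 0.05 with isolation as in the whole list and against all other peaks, and -3 without raised backgrounds and against other narrow peaks. The difference in the share with a raised background, -7.46 percentage points, was -5.33 and -10.2 under the q-value alternatives and -11.1 against all other peaks. The difference between chromosomes 4 and 17, 13.7 percentage points, was 18.2 with isolation found again and 5.94 at 500 kb. The difference in fold enrichment between isolated peaks beyond 1000 kb and those at 200 to 300 kb, -0.14, was 0.23 with isolation found again at a q-value of at most 0.05; the cause was not tested. The alternatives on genomic features and motifs were not run. With 1 library and a median of 21 fragments, the list cannot show which isolated peaks would recur.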
